A study of Homo sapiens with 8 samples.

Results

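Chemokines are small secreted proteins that guide leukocytes, and squamous epithelial cells produce several of them. The genes described here are 10 chemokine genes taken by name from both count tables of an ETS1 knockdown study, out of 35372 gene symbols with at least 1 read. They are CXCL1, CXCL2, CXCL3, CXCL5, CXCL10, CXCL11, CXCL14, CXCL16, CCL20 and CCL5. CXCL1, CXCL2, CXCL3 and CXCL5 carry the glutamate-leucine-arginine (ELR) motif and attract neutrophils through the receptor CXCR2. CXCL10 and CXCL11 are induced by interferons and attract T cells and natural killer cells through CXCR3. CCL5 is also induced in antiviral responses and was counted apart. CCL20 is the ligand of CCR6, CXCL16 the membrane-anchored ligand of CXCR6, and CXCL14 a chemokine of resting epithelia.

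RNA was sequenced from SCC25, an established line of head and neck squamous cell carcinoma, in 8 libraries forming 4 groups of 2 replicates. In the short-term experiment, cells were transfected with a control siRNA (siRNA control) or with a pool of siRNAs against ETS1 (ETS1 siRNA). In the long-term experiment, cells carried a lentiviral non-targeting hairpin (shCON) or a hairpin against ETS1 (shETS1), and shETS1 rests on 1 hairpin construct according to its labels. All groups were the same line with no added cytokine in the labels, and every knockdown was set against the control of its own experiment. The siRNA samples are described as biological replicates, while nothing states that the shRNA replicates came from separate cultures, so that p-values measure the spread between these samples, which may be technical.

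ETS1 itself, a transcription factor of the ETS family, had counts of 5726 and 3977 in siRNA control against 299 and 268 in ETS1 siRNA. It had 2069 and 1871 in shCON against 224 and 279 in shETS1, so that the targeted gene was low in every knockdown library. The squamous epithelial markers were at or above 1 CPM (the read count scaled to library size) for 10 of 10 genes in every library. Their sum was 16506 and 21047 CPM in siRNA control, 27838 and 23951 CPM in ETS1 siRNA, 17350 and 17570 CPM in shCON and 29751 and 29296 CPM in shETS1, with 0 of 10 called after siRNA (4 at an unadjusted p under 0.05, 3 by DESeq2) and 7 higher and 2 lower after the hairpin by edgeR's test. Of all genes tested, 3.41% were called after siRNA and 60.6% after the hairpin, 30.9% as lower and 29.7% as higher. The 8 leukocyte markers summed to between 2.62 and 4.57 CPM, with PTPRC and CD3E at 0 in all siRNA libraries. CD14 was at 1.31 CPM in siRNA control, 1.19 in ETS1 siRNA, 3.19 in shCON and 3.05 in shETS1. PTPRC had at most 7 counts in shCON and 11 in shETS1. Fibroblast markers summed to 208 and 181 CPM in siRNA control against 282 and 326 CPM in ETS1 siRNA, with COL1A1 called as higher, to 241 and 268 CPM in shCON against 2079 and 1984 CPM in shETS1, mostly LUM and DCN, and endothelial markers to 2.03 and 1.96 CPM against 24.0 and 23.8 CPM, mostly KDR with PECAM1 at 0. Structural RNAs took 5.61% and 6.63% of the counts in shCON and 12.3% and 9.64% in shETS1, and at most 0.00339% in the siRNA libraries. The part of these values in the chemokine results was not tested. Total counts ranged from 15954616 to 25953213 per library, and the 2 libraries of each group were further apart than counting error gives (chi-square over degrees of freedom 7.0 to 25.7). In bulk samples such as these, fewer cells of a type and less RNA per cell cannot be told apart.

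The ELR and interferon-type members all lie on chromosome 4, and the sequences in front of CXCL1, CXCL2 and CXCL3 are close copies of each other. On GRCh37 and GENCODE v44 lifted to it, CXCL1 lies at chr4:74735110-74737025 on the plus strand. CXCL5 at chr4:74861359-74864394, CXCL3 at chr4:74902306-74904524 and CXCL2 at chr4:74962757-74964913 lie on the minus strand. CXCL10 at chr4:76942271-76944650 and CXCL11 at chr4:76954835-76962568, also on the minus strand, lie within the span of ART3 without sharing an exon with it. CCL20 lies at chr2:228670455-228682280 on the plus strand, and CXCL14 at chr5:134906369-134914969, CCL5 at chr17:34198495-34207797 and CXCL16 at chr17:4636828-4643223 on the minus strand. Exons of CXCL14 overlap those of SLC25A48, and exons of CXCL16 those of MED11 and ZMYND15, on the opposite strand. Whether the counting used strand is not stated, so that reads of these pairs could not be told apart. Of the 50-base windows of the transcripts, 4.57% for CXCL1, 13.4% for CXCL2 and 6.01% for CXCL3 also occurred in the other genes of the trio. For CCL5, 16.9% occurred in other genes. The counts of these genes are therefore uncertain, and the shares do not bound by how much, because the genes differ in level. In shETS1, CXCL1 was at 45.6 CPM beside 2.77 CPM for CXCL2 and 3.09 CPM for CXCL3. CXCL10, CXCL11 and CCL20 shared no such window.

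The bases before the start sites are shown because CXCL1, CXCL2 and CXCL3 were lower after the hairpin, as were CXCL10 and CXCL11 by a larger amount. The log2 fold changes of the trio differed, from -0.20 for CXCL1 to -1.13 for CXCL2, and a part of the sequence in them was not tested. They were taken from RefSeq on GRCh38.p14, in which 8 of the 10 genes were matched, and end at the base before the start, read in the direction of the gene. The windows are chr4:73869273-73869392 on the plus strand, chr4:74099196-74099315 and chr4:74038690-74038809 on the minus strand. Capitals mark the match to the kappaB consensus, the binding motif of NF-kB factors.
CXCL1: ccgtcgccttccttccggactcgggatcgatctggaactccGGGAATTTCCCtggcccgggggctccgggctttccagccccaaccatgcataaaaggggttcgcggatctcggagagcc
CXCL2: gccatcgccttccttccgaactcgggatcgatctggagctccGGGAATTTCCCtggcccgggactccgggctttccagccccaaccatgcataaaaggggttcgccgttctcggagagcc
CXCL3: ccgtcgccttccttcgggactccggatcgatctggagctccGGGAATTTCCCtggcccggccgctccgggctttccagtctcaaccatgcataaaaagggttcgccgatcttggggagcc
Over these 120 bases the trio was 88.4% to 93.4% identical, and the longest run common to all of them was 23 bases and held the kappaB match. CXCL5 was 54.4% to 55.6% identical to the trio over the same window.

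The interferon-type genes and CCL20 have other sequences there, from chr4:76023498-76023727 and chr4:76036071-76036190 on the minus strand and chr2:227813722-227813841 on the plus strand. Capitals mark kappaB matches and, in CXCL10, also the core of the interferon-stimulated response element (ISRE, searched as a pair of GAAA runs with any 2 bases between them, on both strands), bound by STAT and IRF factors, which is the most distant of its marked runs.
CXCL10: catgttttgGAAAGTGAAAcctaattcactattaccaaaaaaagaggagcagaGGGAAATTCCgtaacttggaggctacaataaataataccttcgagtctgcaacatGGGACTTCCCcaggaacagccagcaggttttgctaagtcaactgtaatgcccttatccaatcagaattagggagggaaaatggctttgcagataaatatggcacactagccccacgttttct
CXCL11: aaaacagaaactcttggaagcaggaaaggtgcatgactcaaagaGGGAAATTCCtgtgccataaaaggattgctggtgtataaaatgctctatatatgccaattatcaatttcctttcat
CCL20: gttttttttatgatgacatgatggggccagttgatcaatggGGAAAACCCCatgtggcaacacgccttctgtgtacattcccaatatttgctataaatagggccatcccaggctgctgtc
A kappaB match on either strand, to the consensus of 10 letters, lay within 250 bases before the start in 7 of the 8 members with a sequence, all but CXCL14, against 5.05% of 27305 promoters. The ISRE core was found in CXCL10 alone of these 8, against 3.07% of promoters. The ETS hexamer GGAAGT, on either strand, was found in CXCL10, where it overlaps a kappaB match, and in CCL20, against 19.9% of promoters. Only these exact letters were searched, so that other forms of an ETS site were not counted. These matches describe the letters in this window only. The paper mapped ETS1 binding in SCC25 by ChIP-Seq, and those binding sites were not read here for these genes.

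The levels of the members set the precision of what follows. CXCL5 had at most 2 counts in any library, under the floor of 3 counts throughout, and passed no filter, so that no fold is given. The other 9 members passed the filter on low counts in each comparison. Per kilobase of exon, siRNA control was led by CXCL11 at 90.3 ± 26.0 CPM per kb (SD, n = 2), CXCL1 at 83.3 ± 29.5, CXCL10 at 76.8 ± 34.9 and CCL5 at 57.8 ± 25.5. Neighbours in this order differed by less than their SD, while CXCL11 and CCL5 differed by more than 1 SD. CCL20 followed at 17.6 ± 0.45, CXCL16 at 9.96 ± 0.71, CXCL2 at 6.60 ± 0.70, CXCL14 at 5.96 and CXCL3 at 3.75 ± 0.78 CPM per kb, and CXCL2 and CXCL14 differed by less than the spread of CXCL2. In shCON the order was CXCL1 at 38.6 ± 0.59, CXCL14 at 34.6 ± 1.30, CXCL11 at 9.35 ± 0.23 and CXCL10 at 6.26 ± 1.11 CPM per kb. CXCL2, CCL5, CCL20 and CXCL16 lay between 4.32 and 3.68 and CXCL3 at 1.99 CPM per kb in shCON. In shETS1, CXCL14 led with 119 ± 1.65 CPM per kb, followed by CXCL1 at 33.5 ± 0.93 and CCL20 at 6.55 ± 0.11, and the other members lay at or under 1.98. Levels were scaled within each table, so levels of the siRNA and shRNA libraries are not compared.

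**Figure D1:**
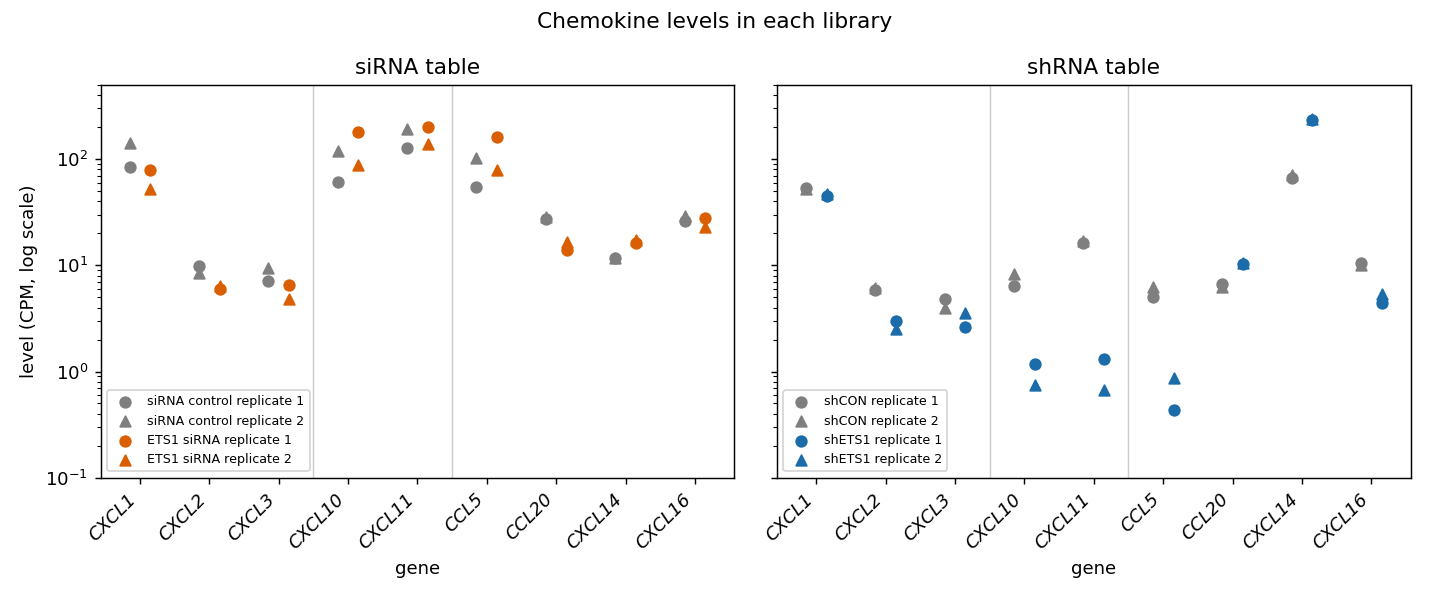
Level of 9 chemokines in each library, in CPM on a log axis, in the siRNA libraries (left) and the shRNA libraries (right), with a circle for replicate 1 and a triangle for replicate 2. CXCL10, CXCL11 and CCL5 overlap between the siRNA groups and lie apart in the shRNA groups, where the shETS1 libraries are between 0.435 and 1.31 CPM.

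CXCL1, CXCL2 and CXCL3, the ELR members that could be tested, were lower in both knockdown groups than in their controls, although after siRNA none of them passed the test. CXCL1 was at 85.1 and 142 CPM in siRNA control and at 79.2 and 51.9 CPM in ETS1 siRNA. CXCL2 was at 9.91 and 8.53 CPM against 6.04 and 6.44 CPM. CXCL3 was at 7.09 and 9.53 CPM against 6.51 and 4.82 CPM. The groups did not overlap for any of the trio, but the replicates of CXCL1 lay far apart in both groups. With 2 libraries a group, genes far from passing edgeR's test also lay apart, such as LTBR, a listed cytokine receptor (adjusted p = 0.84). The log2 fold changes were -0.79 ± 0.27 (SE) for CXCL1, -0.56 ± 0.18 for CXCL2 and -0.55 ± 0.23 for CXCL3, with adjusted p of 0.18, 0.17 and 0.26 in edgeR's quasi-likelihood test. By that test 0 of the 3 were called at an adjusted p under 0.1, 3 of the 3 had an unadjusted p under 0.05, and DESeq2 called 0. CXCL1 passed without siRNA control replicate 1 (adjusted p = 0.074), without ETS1 siRNA replicate 1 (adjusted p = 0.027), without a filter on low counts (adjusted p = 8.4e-05) and in the fit of all 8 libraries (adjusted p = 0.066), in which CXCL2 passed too (adjusted p = 0.056). Of all 14742 genes tested after siRNA, 3.41% were called, 2.27% as lower and 1.13% as higher.

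After the hairpin, CXCL1 was at 53.1 and 52.0 CPM in shCON and at 44.7 and 46.5 CPM in shETS1. CXCL2 was at 5.92 and 6.16 CPM against 3.0 and 2.53 CPM. CXCL3 was at 4.85 and 4.0 CPM against 2.65 and 3.52 CPM. Each shETS1 library was below each shCON library for all of the trio, as also for LTBR, which edgeR's test did not call (adjusted p = 0.19). CXCL2 fell by 1.13 on the log2 scale (SE 0.17, adjusted p = 3.1e-05), a 2.19-fold lower level. CXCL1 fell by 0.20 (SE 0.08, adjusted p = 0.036) and CXCL3 by 0.51 (SE 0.19, adjusted p = 0.034). DESeq2 did not call CXCL1 (adjusted p = 0.12) or CXCL3 (adjusted p = 0.22). CXCL1 was also lost with the replicate number as a block (adjusted p = 0.10) and in the fit of all 8 libraries. CXCL1 was not called without shCON replicate 1 (adjusted p = 0.18), shCON replicate 2 (adjusted p = 0.12) or shETS1 replicate 1 (adjusted p = 0.11), nor CXCL3 without shCON replicate 1 (adjusted p = 0.23) or shETS1 replicate 1 (adjusted p = 0.20). Of all 16481 genes tested after the hairpin, 60.6% were called, 30.9% as lower and 29.7% as higher, against 9 of the 9 members tested, 7 of them lower and 2 higher. A called gene was thus common in this comparison.

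CXCL10 and CXCL11 fell by far more after the hairpin than CXCL1, CXCL2 and CXCL3, and did not pass the test after siRNA. The ELR chemokines IL8 and CXCL6, which are no members, rose after the hairpin, by 0.96 and 1.59 on the log2 scale. CXCL10 was at 6.43 and 8.28 CPM in shCON and at 1.17 and 0.752 CPM in shETS1, and CXCL11 at 16.4 and 16.9 CPM against 1.31 and 0.673 CPM. In counts, these were 162 and 215 against 27 and 19 for CXCL10, and 412 and 440 against 30 and 17 for CXCL11. CXCL10 fell by 2.94 on the log2 scale (SE 0.23, adjusted p = 1.2e-08), a 7.67-fold lower level. CXCL11 fell by 4.09 (SE 0.20, adjusted p = 2.2e-11), a 17.0-fold lower level. All 9 calls after the hairpin were kept when structural RNAs and mitochondrial genes were left out of the library sizes.

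In the siRNA libraries the interferon-type genes were abundant and differed between replicates as much as between groups. CXCL10 was at 61.3 and 119 CPM in siRNA control and at 179.5 and 87.3 CPM in ETS1 siRNA. CXCL11 was at 128 and 193 CPM against 201 and 138 CPM. ETS1 siRNA replicate 1 held the highest and siRNA control replicate 1 the lowest level of both genes, and the groups overlapped. The log2 fold change was 0.56 ± 0.37 for CXCL10 (95% interval -0.28 to 1.41, adjusted p = 0.45) and 0.08 ± 0.23 for CXCL11 (95% interval -0.45 to 0.61, adjusted p = 0.89). Neither had an unadjusted p under 0.05, and DESeq2 called neither, but without a filter on low counts CXCL10 was called as higher (adjusted p = 0.012). CXCL10 turned to -0.04 without ETS1 siRNA replicate 1, and reached 1.12 (adjusted p = 0.099) without siRNA control replicate 2, while CXCL11 was at -0.21 without ETS1 siRNA replicate 1 and at -0.19 without siRNA control replicate 1.

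CCL5 ranked the siRNA libraries in the same order as CXCL10 and CXCL11. It was at 54.2 and 103 CPM in siRNA control and at 161 and 79.8 CPM in ETS1 siRNA, with overlapping groups and a log2 fold change of 0.61 ± 0.36 (adjusted p = 0.40). It was called without a filter on low counts (adjusted p = 0.0048). Without siRNA control replicate 2 that value was 1.15 (adjusted p = 0.086), and without ETS1 siRNA replicate 1 it was 0.026. In the shRNA libraries it was at 5.0 and 6.2 CPM against 0.435 and 0.871 CPM, from 126 and 161 counts against 10 and 22. CCL5 fell by 3.07 (SE 0.27, adjusted p = 3.9e-08), an 8.41-fold lower level, in the hairpin libraries.

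CCL20, which draws CCR6-bearing T cells and dendritic cells to epithelia, moved in opposite directions in the knockdowns. It was at 27.6 and 28.6 CPM in siRNA control and at 13.9 and 16.7 CPM in ETS1 siRNA, and the groups did not overlap. The fall of 0.88 on the log2 scale (SE 0.15, adjusted p = 0.038) was the 1 call among the 9 members tested after siRNA. It was not called with the replicate number as a block (adjusted p = 0.14) or without siRNA control replicate 1 (adjusted p = 0.15). In the shRNA libraries CCL20 was at 6.67 and 6.31 CPM in shCON and at 10.3 and 10.6 CPM in shETS1. It rose by 0.69 (SE 0.13, adjusted p = 0.00025), a 1.61-fold higher level.

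CXCL14 rose and CXCL16 fell after the hairpin. CXCL14 was at 66.6 and 70.2 CPM in shCON and at 232 and 237 CPM in shETS1, a log2 fold change of 1.78 ± 0.07 (adjusted p = 3e-12) or a 3.43-fold higher level. In the siRNA libraries it was at 11.8 CPM in both controls and at 16.3 and 17.2 CPM in ETS1 siRNA, which gave 0.51 ± 0.15 on the log2 scale and did not pass the test (adjusted p = 0.14), although it did without ETS1 siRNA replicate 1, without a filter on low counts (adjusted p = 0.099) and in the fit of all 8 libraries (adjusted p = 0.018). CXCL16 was at 10.4 and 10.1 CPM in shCON and at 4.39 and 5.42 CPM in shETS1, and fell by 1.06 (SE 0.14, adjusted p = 8.1e-06). It was at 26.4 and 29.2 CPM in siRNA control and at 28.0 and 23.1 CPM in ETS1 siRNA, with overlapping groups and a log2 fold change of -0.12 ± 0.15 (adjusted p = 0.71).

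**Figure D2:**
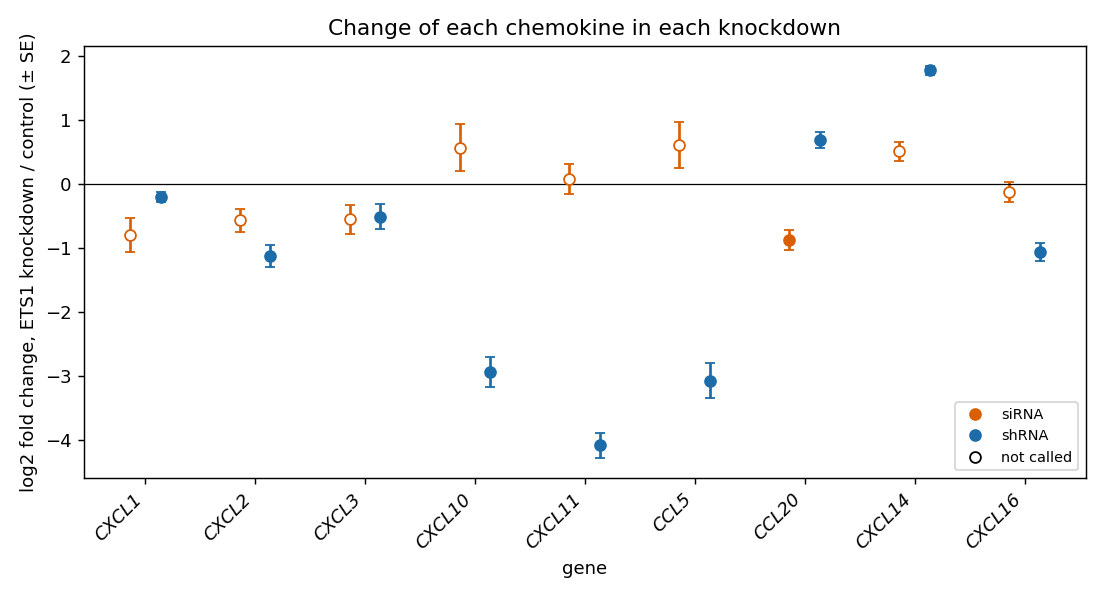
Log2 fold change of each chemokine in ETS1 knockdown against its own control, with bars of 1 SE, in orange after siRNA and in blue after shRNA, and with open points for values that did not pass the test. CCL20 is the only filled siRNA point, at -0.88, and CXCL11 the lowest shRNA point, at -4.09.

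Set against each other, CXCL1, CXCL2 and CXCL3 fell far less than CXCL10 and CXCL11 after the hairpin, while after siRNA none of them passed the test. IL8, an ELR chemokine that is no member, was called as lower after siRNA (-1.21, adjusted p = 0.042 in edgeR's quasi-likelihood test). After siRNA the median log2 fold change was -0.56 over the 3 ELR members tested and 0.32 over CXCL10 and CXCL11, a difference of -0.89 beside a spread between replicates of 0.80. The interferon-type median after siRNA was -0.12 without ETS1 siRNA replicate 1, -0.014 without siRNA control replicate 1 and 0.77 without siRNA control replicate 2. After the hairpin the medians were -0.51 and -3.51, a difference of 3.0 beside a spread between replicates of 0.69. The median over all genes tested was 0.0018 after siRNA and 0.00066 after the hairpin. With CCL5 counted as interferon type, the differences were -1.13 and 2.56. By library, the mean log2 CPM of the ELR members minus that of the interferon-type members was -2.28 and -2.74 in siRNA control and -3.69 and -3.21 in ETS1 siRNA. It was 0.17 and -0.12 in shCON and 2.45 and 3.26 in shETS1. Neither knockdown group overlapped its control in this difference, which lay below the control after siRNA and above it after the hairpin. With 2 libraries a group, such a gap can arise without a change. The difference between the types was not tested.

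**Figure D3:**
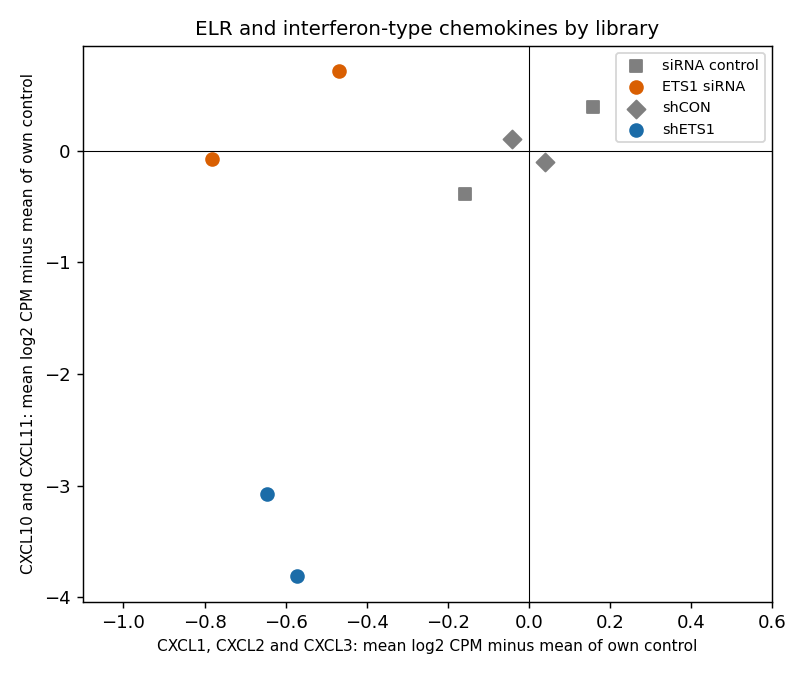
Each of the 8 libraries by its mean log2 CPM of CXCL1, CXCL2 and CXCL3 (horizontal) and of CXCL10 and CXCL11 (vertical), both minus the mean of the library's own control group. The knockdown libraries lie left of their controls, between -0.47 and -0.78, and the shETS1 libraries also lie at -3.07 and -3.81 on the vertical axis.

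Whether the knockdowns differed was tested in a fit of all 8 libraries, in which the siRNA effect was subtracted from the effect of the hairpin. Of all 17190 genes tested in this way 34.8% were called, 19.7% as lower and 15.1% as higher, against 7 of the 9 members, 5 lower and 2 higher. The lower ones were CXCL11 at -4.18 (adjusted p = 8.2e-05), CCL5 at -3.70 (adjusted p = 0.0024), CXCL10 at -3.52 (adjusted p = 0.0024), CXCL16 at -0.96 (adjusted p = 0.0063) and CXCL2 at -0.58 (adjusted p = 0.083) on the log2 scale. The higher ones were CCL20 at 1.54 (adjusted p = 0.00023) and CXCL14 at 1.25 (adjusted p = 0.00016). CXCL1 at 0.57 (95% interval -0.14 to 1.28, adjusted p = 0.23) and CXCL3 at 0.02 (95% interval -0.71 to 0.75, adjusted p = 0.99) did not pass. CXCL2 was not called by DESeq2 (adjusted p = 0.28), and it was lost on leaving out any library but siRNA control replicate 1 or ETS1 siRNA replicate 1, while leaving out either of those called CXCL1 (adjusted p = 0.038 and 0.031). The kind of knockdown and the table it was prepared in cannot be told apart.

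Most other chemokines were too low to test. Of 38 listed, 30 had reads. After siRNA 9 were tested, of which 1 fell, and after the hairpin 7, of which 3 rose and 1 fell. Over all genes tested, 3.41% were called after siRNA and 60.6% after the hairpin. IL8, an ELR chemokine and ligand of CXCR1 and CXCR2, was at 121 ± 23.9 CPM in siRNA control and at 52.6 ± 14.96 CPM in ETS1 siRNA, and fell by 1.21 (SE 0.22, adjusted p = 0.042). In shETS1 it was at 93.6 ± 2.76 CPM against 48.2 ± 0.99 CPM in shCON and rose by 0.96 on the log2 scale (SE 0.08, adjusted p = 1.1e-08). CXCL6, another ELR chemokine, rose by 1.59 (SE 0.17, adjusted p = 4.4e-07) after the hairpin, from 2.60 ± 0.20 to 7.83 ± 0.74 CPM. Thus IL8 and CXCL6 moved up after the hairpin while CXCL1, CXCL2 and CXCL3 moved down. Of 27 listed receptors 20 had reads, with 3 tested after siRNA, 1 of them called as higher, and 2 after the hairpin, both higher. The named receptor was ACKR3, an atypical receptor that binds CXCL11 and CXCL12 without classical signalling, at 0.54 (adjusted p = 0.093) after siRNA and 1.61 (adjusted p = 2.1e-11) after the hairpin.

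**Figure D4:**
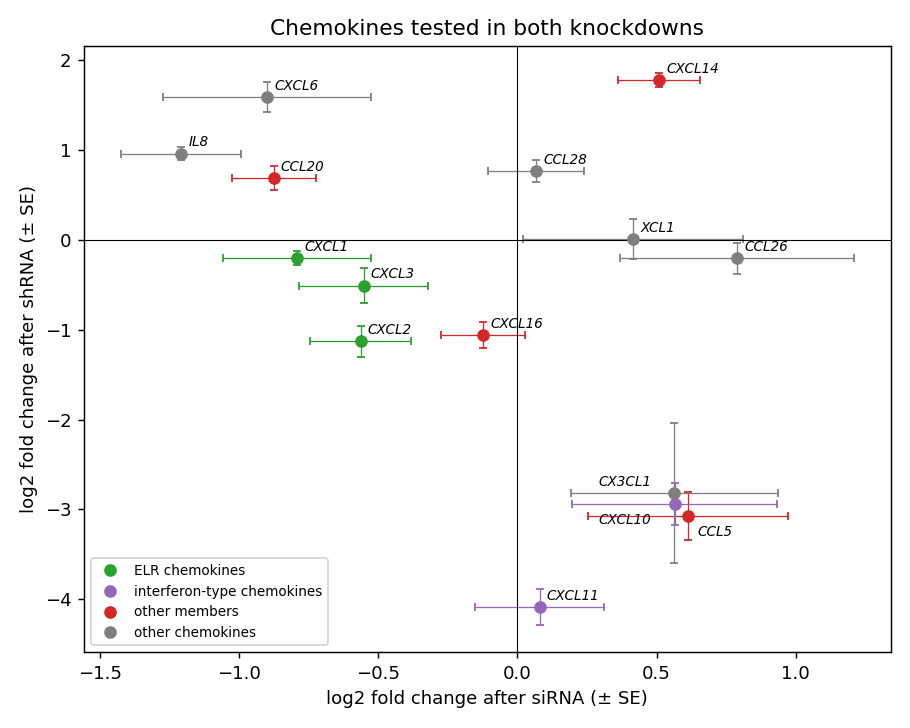
Chemokines tested in both knockdowns, by log2 fold change after siRNA (horizontal) and after shRNA (vertical), with bars of 1 SE, coloured by group. CXCL10, CXCL11 and CCL5 lie at the bottom, CXCL1, CXCL2 and CXCL3 on the left below 0, and IL8, CXCL6 and CCL20 on the left above 0.

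Genes known to act before the chemokines were read from lists. Over all genes tested, 3.41% were called after siRNA and 60.6% after the hairpin, 30.9% as lower and 29.7% as higher. Of 16 NF-kB factors and feedback genes, 2 fell after siRNA, with a list median of -0.02, and 5 rose and 7 fell after the hairpin, with a median of -0.13. BIRC3, an inhibitor of apoptosis induced by NF-kB, fell by 0.95 after siRNA (adjusted p = 0.055) and rose by 1.93 after the hairpin (adjusted p = 2.7e-12). NFKBIA, which holds NF-kB in the cytoplasm, rose by 0.79 after the hairpin (adjusted p = 1.5e-07), and NFKB2 fell by 0.84 (adjusted p = 2.4e-06). CHUK, an IkB kinase subunit, fell by 0.54 after siRNA (adjusted p = 0.089), and TNFAIP3, a deubiquitinase that limits NF-kB, by 0.49 after the hairpin (adjusted p = 0.00016).

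Of the inducing cytokines and their receptors, 3 of 15 fell after siRNA and none rose, with a list median of -0.07. After the hairpin 3 of 13 rose and 7 fell, with a median of -0.46. The shares called over all genes tested were 3.41% and 60.6%. IL1A, an alarmin cytokine of keratinocytes, fell by 1.07 after siRNA (adjusted p = 0.014) and by 2.99 after the hairpin (adjusted p = 2.1e-14). IL6 fell by 1.17 after siRNA (adjusted p = 0.021) and by 0.74 after the hairpin (SE 0.33, adjusted p = 0.069). Its level in the hairpin libraries was low, at 1.60 ± 0.46 CPM in shCON and 0.97 ± 0.36 CPM in shETS1. IL1B, a cytokine of the same receptor as IL1A, fell by 0.70 after siRNA (adjusted p = 0.063) and by 3.46 after the hairpin (adjusted p = 2.9e-14). After the hairpin IL1R1, that receptor, rose by 1.87 (adjusted p = 1.4e-11) and IL17RC, a subunit of the IL-17 receptor, by 1.13 (adjusted p = 1.3e-06).

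Of the genes of interferon induction and signalling, 1 of 27 fell after siRNA, with a list median of -0.04. After the hairpin 4 of 27 rose and 15 fell, with a median of -0.31. Over all genes tested, 3.41% were called after siRNA, and 30.9% as lower and 29.7% as higher after the hairpin. TMEM173, the adaptor STING of cytosolic DNA sensing, fell by 0.87 (adjusted p = 0.021) and 1.08 (adjusted p = 8.4e-07) in the respective knockdowns. DDX58, the RNA sensor RIG-I, fell by 1.56 after the hairpin (adjusted p = 1.1e-10). IFNGR1, a subunit of the interferon gamma receptor, rose by 1.27 (adjusted p = 3e-10) and JAK1, the kinase it shares with other cytokine receptors, by 0.92 (adjusted p = 1.1e-08). Of 9 chemokine-processing proteases tested, edgeR's test called 0 after siRNA, with 1 at an unadjusted p under 0.05 and 0 by DESeq2, and 4 rose and 2 fell after the hairpin. MMP7 rose by 5.24 (adjusted p = 5e-16) and DPP4, which trims CXCL10 and CXCL11, by 1.22 (adjusted p = 6.5e-06), while MMP2 fell by 1.41 (adjusted p = 1.2e-09).

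Patterns over the 8 libraries were compared among 10040 genes, as log2 CPM minus the mean of the library's own control group. The genes nearest to the ELR mean, by root mean square distance, were MASTL at 0.089, CTTNBP2NL at 0.10 and GNB4 at 0.11. Those nearest to the interferon-type mean were HERC5 at 0.22, GBP4 at 0.24 and BST2 at 0.35. HERC5 had a log2 fold change of 0.53 after siRNA and -3.50 after the hairpin, GBP4 of 0.74 and -3.38, and BST2 of 0.52 and -2.96.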

How the data were processed

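The authors deposited unnormalized counts of reads by gene symbol, with 1 table for siRNA and 1 for shRNA. They sequenced TruSeq libraries as single-end reads of 50 bases. Per the submitters' processing notes, TopHat2 2.1.1 and Bowtie2 2.2.6 aligned reads to GRCh37 and featureCounts 1.5.0 counted them. The strand and multi-mapping settings are not given in the sources used here. Knockdown and control were compared on all genes with edgeR 4.0.16 (R 4.3.3), using its two-sided quasi-likelihood test after TMM scaling and filterByExpr. Genes with a p under 0.1 after Benjamini-Hochberg adjustment were called. The interaction used all 8 libraries. SE was derived from the fold change and F. Log2 CPM used a prior count of 2. The test was tested on simulated data: when counts were drawn with each gene's own dispersion, unchanged genes made up more of the calls than the nominal share for the hairpin and interaction comparisons, and close to or below it for siRNA or when drawn from the dispersion trend, a version added after the former result was seen, so that calls near the threshold are less secure than their adjusted p.

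Besides the members and ETS1, the text names, from each list and knockdown, the 2 called genes with the largest rise and the 2 with the largest fall at a mean of at least 5 CPM, and the 3 nearest patterns. The members and lists were chosen with earlier results of these data known. Of 56638 symbols, 33514 matched a current and 1892 an older symbol in the annotation. Alternatives were other scalings and filters, DESeq2 1.42.0, a replicate block, all libraries in one fit, a stricter threshold and leaving out each library.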

Additional observations from a re-analysis of the deposited data

Results flagged for a closer look

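These results were picked out because the test of the difference between the knockdowns, given as shRNA minus siRNA on the log2 scale, passed its threshold in edgeR's quasi-likelihood test. Among the members these were CXCL11 (-4.18), CCL5 (-3.70), CXCL10 (-3.52), CXCL16 (-0.96), CXCL2 (-0.58), CXCL14 (1.25) and CCL20 (1.54). Among other chemokines and receptors they were CXCL6 (2.48), IL8 (2.15) and ACKR3 (1.05). Among NF-kB genes they were BIRC3 (2.86), NFKBIA (0.61), CHUK (0.60) and NFKB2 (-0.80). Among cytokines and receptors they were IL1R1 (2.11), IL17RC (0.68), IL1A (-1.93) and IL1B (-2.78). Among interferon signalling genes and proteases they were IFNGR1 (1.33), JAK1 (0.98), DDX58 (-1.90), MMP7 (4.46) and MMP2 (-1.61). The kind of knockdown cannot be told apart from the preparation of the libraries, and the cause of these differences was not tested. Groups of 2 libraries were too small to look for a library standing apart by its gap to the others.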

How the results depend on the processing

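After the hairpin, the calls of CXCL2, CXCL10, CXCL11, CXCL14, CXCL16, CCL20 and CCL5 held in every alternative run, as did the interactions of CXCL10, CXCL11, CXCL14, CXCL16, CCL20 and CCL5. After siRNA the 1 member called became 5 without a filter on low counts, 4 with all 8 libraries in one fit (without a filter CXCL1, CXCL10, CXCL14 and CCL5 joined CCL20, and in the fit of all libraries CXCL1, CXCL2 and CXCL14) and 0 with the replicate number as a block. Same-numbered siRNA libraries deviated oppositely (correlation -0.57, and -0.13 for shRNA), and nothing in the labels pairs them. The block left 97 genes called after siRNA against 502. A crossed pairing, chosen after seeing the data, called 7 members and 3238 genes. In the block fit CXCL1 after the hairpin and the CXCL2 interaction (adjusted p = 0.18) were also lost. The CXCL2 interaction was lost too without a filter on low counts and at an adjusted p under 0.05. Without a filter the CXCL1 interaction was called. The fit of all 8 libraries lost CXCL1 after the hairpin too. All 8 libraries in one fit called 2166 genes after siRNA, no filter 1466, and at an adjusted p under 0.05 there were 190. DESeq2 called 766 after siRNA and protein-coding genes with at least 1 TPM gave 791. Leaving out each library gave 1 to 3 members called and 72 to 1478 genes after siRNA (72 without siRNA control replicate 1, 1478 without ETS1 siRNA replicate 1), and 7 to 9 members after the hairpin. The interferon-type median ranged from -0.12 to 0.77 after siRNA, turning negative also without siRNA control replicate 1 (-0.014). The ELR median ranged from -0.77 to -0.38 after siRNA and from -0.74 to -0.33 after the hairpin. CXCL1 passed after siRNA without siRNA control replicate 1 (-1.12) and without ETS1 siRNA replicate 1 (-1.12). CXCL3 after the hairpin was lost without shCON replicate 1 and without shETS1 replicate 1.

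Direction turned for CXCL11 after siRNA (-0.19 without siRNA control replicate 1, -0.21 without ETS1 siRNA replicate 1, range to 0.41), CXCL10 (-0.040 without ETS1 siRNA replicate 1, range to 1.12), CXCL16 (0.0078 without ETS1 siRNA replicate 2, range from -0.26) and the CXCL3 interaction (-0.065 with library size only, and between -0.21 and -0.12 without replicate 2 of any 1 group: -0.21 for siRNA control and shETS1, -0.20 for ETS1 siRNA and -0.12 for shCON, range to 0.24), none of them called. Library size only moved the median of all genes after the hairpin to -0.12, with 3624 higher and 6269 lower against 4900 and 5088. The cause of these changes was not tested. At 2 libraries a group and 10 to 30 counts in shETS1, the folds of CXCL10, CXCL11 and CCL5 rest on few reads.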
